A study of Homo sapiens with 6 samples.

Results

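The AP-1 subunits are the transcription factors whose pairs make up activator protein 1. 10 of the 27009 genes in the deposited table were chosen by gene name as its members, namely the JUN family (JUN, JUNB and JUND), the FOS family (FOS, FOSB, FOSL1 and FOSL2) and the partner genes ATF3, BATF3 and MAFF. All 10 were found, each once. The genes were chosen with their difference between the groups already known, so that difference is given as a description. Where members are counted as called, the count describes them too and is no independent test, and p-values are printed for other genes only. The other gene lists below were also chosen with earlier results of these data known. Their counts and p-values are thus no independent test either.

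RNA sequencing was performed on 6 libraries of cells labelled Hep3B, a human hepatocellular carcinoma line, to compare expression between cells carrying nPD-L1 and cells carrying the vector. All 6 shared a knockout of the endogenous PD-L1 gene. The 3 vector libraries (PD-L1-KO-vector) came from knockout cells with the empty construct, and the 3 nPD-L1 libraries (PD-L1-KO-nPD-L1) came from knockout cells that re-expressed, from a CMV promoter after lentiviral infection, a PD-L1 mutated so that it is compartmentalized in the nucleus. The study describes the libraries of a group as independent samples but does not say whether they were separate cultures, so p-values measure the spread between these samples, which may be technical. Whether either line grew from 1 clone is not stated.

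Each value is a scaled read, that is, the reads counted on a gene divided by a size factor of the library. The scaled reads summed to between 18082164 and 19682128 per library, and the 4 libraries in which whole reads could be recovered held 17427519 to 22253295 reads on genes. At this depth the lowest recovered count of a member was 53 reads, for FOSB in vector replicates 2 and 3. Most hepatocyte transcripts were near 0, against the label of the cells. Of the 9 hepatocyte markers in the table, ALB, APOA1, APOB, TTR and TF lay between 0 and 2.89 scaled reads in every library, whereas FGB reached 962 to 1540. The sum of these markers ran from 1106 to 1645 in the vector and from 1163 to 1276 in the nPD-L1 libraries. Of 6 markers of other cell types, the blood and endothelial genes PTPRC, PECAM1 and VWF stayed at or below 3.03, while the keratin gene KRT7 lay between 24580 and 37360. The collagen gene COL1A1 rose from 65.3 ± 16.5 to 466 ± 21.1 (SD, n = 3; adjusted p = 7.99e-06 by limma) and the hepatocyte factor HNF4A from 12.2 ± 6.52 to 45.5 ± 10.2 (adjusted p = 0.0232), the latter lost without any 1 of the 3 libraries labelled nPD-L1. The part of these markers in the results was not tested. CD274, which encodes PD-L1, measured 28.3, 38.4 and 47.8 scaled reads under vector against 16.8, 19.2 and 30.9 under nPD-L1, a log2 difference of −0.77 (SE 0.34, adjusted p = 0.338 by limma). It was thus not higher in the libraries labelled nPD-L1, and the groups are named below by their labels only.

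AP-1 factors carry a basic region that contacts DNA and a leucine zipper through which subunits pair. JUN proteins pair with themselves or with FOS proteins, whereas FOS proteins need a JUN or another partner, and the pairs bind the TRE, the phorbol ester response element TGACTCA, or the related cAMP response element (CRE) TGACGTCA. Many of the genes are immediate-early genes, switched on within minutes by growth factors, stress or cytokines through MAP kinases and serum response factor. In liver, JUN is known for its part in regeneration and in the growth of liver tumors.

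The promoters of the 4 members with higher transcript in the libraries labelled nPD-L1 are shown so that letters they share can be read. Each is the RefSeq window of GRCh38.p14 from 250 bases before to 50 bases after the start of the gene, 5′ to 3′ on the gene's strand, and capitals mark matches to the motifs searched. The windows are chr19:12791236-12791535, + strand for JUNB, chr19:45467746-45468045, + strand for FOSB, chr1:58783998-58784297, - strand for JUN and chr1:212565157-212565456, + strand for ATF3.
JUNB: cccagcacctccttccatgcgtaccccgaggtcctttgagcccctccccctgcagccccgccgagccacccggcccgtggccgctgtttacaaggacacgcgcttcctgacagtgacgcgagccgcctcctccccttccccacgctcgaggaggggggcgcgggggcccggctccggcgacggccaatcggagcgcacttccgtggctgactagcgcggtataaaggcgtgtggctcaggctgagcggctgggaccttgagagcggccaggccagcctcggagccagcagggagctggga
FOSB: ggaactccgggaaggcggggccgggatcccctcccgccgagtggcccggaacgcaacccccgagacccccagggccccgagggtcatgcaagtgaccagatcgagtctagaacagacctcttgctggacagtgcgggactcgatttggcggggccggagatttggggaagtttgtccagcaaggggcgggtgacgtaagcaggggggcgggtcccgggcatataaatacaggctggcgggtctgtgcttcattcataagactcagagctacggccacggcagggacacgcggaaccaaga
JUN: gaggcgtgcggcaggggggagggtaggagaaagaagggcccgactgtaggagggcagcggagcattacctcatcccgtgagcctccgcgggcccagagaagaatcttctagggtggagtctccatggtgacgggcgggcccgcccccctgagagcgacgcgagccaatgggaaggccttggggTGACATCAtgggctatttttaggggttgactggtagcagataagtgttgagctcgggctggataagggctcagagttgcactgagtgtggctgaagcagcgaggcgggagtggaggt
ATF3: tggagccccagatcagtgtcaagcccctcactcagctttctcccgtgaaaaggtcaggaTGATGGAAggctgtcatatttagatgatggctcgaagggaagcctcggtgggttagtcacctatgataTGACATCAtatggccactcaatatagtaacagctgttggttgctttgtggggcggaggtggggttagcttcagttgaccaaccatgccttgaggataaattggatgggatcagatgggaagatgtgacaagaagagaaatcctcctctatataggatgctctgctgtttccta

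Promoters of 8 members were matched, those other than FOSL1 and BATF3. 8 motifs were searched on both strands: the TRE, the CRE, the variant TRE of the JUN promoter (TGACATCA), the CArG box of serum response factor, the SMAD palindrome GTCTAGAC, the STAT site TTCNNNGAA, the GC element GGCGCC bound by BMP-type SMADs, and the ATF and C/EBP composite TGATGNAA. JUN and ATF3 both held TGACATCA, starting 67 and 123 bases before the gene start, a motif found in 2.61% of 35116 promoters. ATF3 also held the composite motif (3.62% of promoters), as TGATGGAA 191 bases before its start. No match overlapped another. The JUNB and FOSB windows printed above held none of the 8 motifs, which says only that these letters are not in these windows.

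Among members whose groups overlapped, JUND and MAFF held the CRE (1.85% of promoters), 200 and 54 bases before the start. FOSL2 held the TRE (4.95% of promoters) 5 bases after its start, and FOS held GGCGCC at 86 and 15 bases before its start (19.2% of promoters). MAFF also held a STAT site 3 bases after its start, a motif in 7.66% of promoters. The CArG box (1.29% of promoters) and the SMAD palindrome (0.202%) were not found in any of the 8 windows. The members' windows had a median GC content of 65.5%, against 58.7% over all promoters, and a median of 29 CG dinucleotides against 14. The RefSeq start lay 1227 bases from the deposited gene start in MAFF, 410 in FOSL2 and 280 in JUN, so those windows may not be the start in use here. The same holds for ATF3, which has 11 annotated transcripts over 55444 bases. Its window had a GC content of 48.0% and 4 CG dinucleotides. Which start was in use was not tested for any member.

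The difference between the groups was uneven within each family. JUNB, JUN, FOSB and ATF3 were higher in all 3 libraries labelled nPD-L1 than in any vector library, and the other 6 members overlapped between groups. By limma on log2(value + 1) across the 15076 genes with at least 10 scaled reads in 3 or more libraries, 4 of the 10 members were called higher at an adjusted p under 0.05, where 4.04% of all genes tested were called higher. None was called lower by limma on all 6 libraries, where 0.922% of all genes tested were, or by edgeR or DESeq2 on 4 libraries. At an unadjusted p under 0.05 by limma, 1 (FOSL1) was lower. The 4 members with no overlap stand beside 12.0% of all genes with no overlap in that direction, and no member lay wholly lower, as 8.54% of all genes did. All 10 members passed the filter, and because their choice used this contrast, nothing is read from these shares. The median log2 difference of the members was 0.12 and that of all genes tested −0.02.

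**Figure D1:**
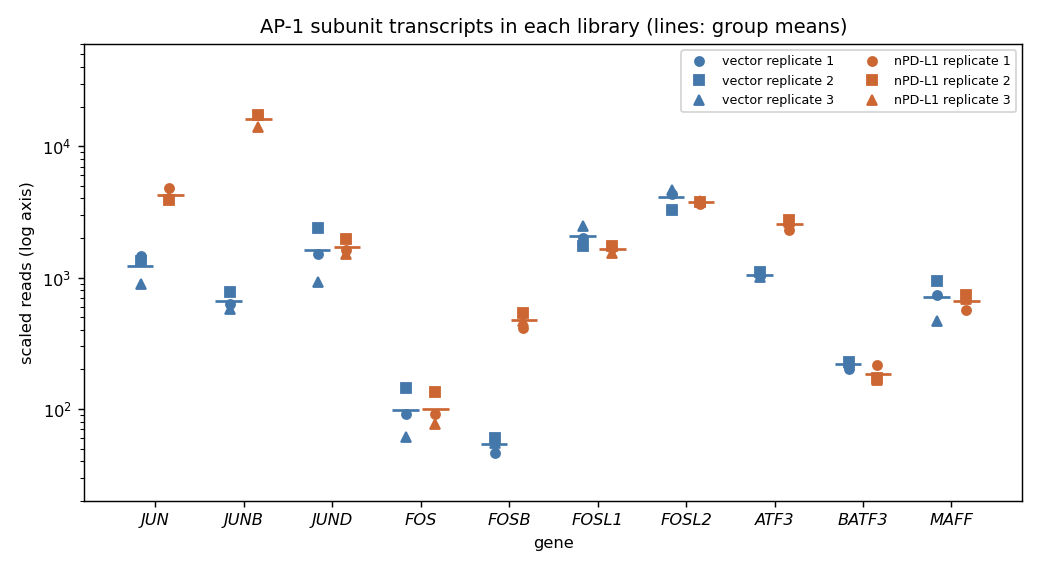
Scaled reads of the 10 AP-1 subunits on a log axis, 1 point for each of 3 vector (blue) and 3 nPD-L1 (orange) libraries, with lines at the group means. JUNB, JUN, FOSB and ATF3 are separated between the groups, and JUND, FOS and MAFF spread most among the vector libraries.

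Most AP-1 pairs contain a JUN protein. JUNB, a subunit that activates some promoters and is a weaker activator than JUN on others, had 629.8, 778 and 572 scaled reads in vector replicates 1, 2 and 3 and 17210, 17280 and 14110 in nPD-L1 replicates 1, 2 and 3. The lowest value labelled nPD-L1 thus lay far above the highest vector value. The means, 659.9 ± 106 and 16200 ± 1811 (SD, n = 3), were 24.6-fold apart, a log2 difference of 4.62 (SE 0.13) that ranked 8 among 15076 genes. In bulk RNA, more cells with the transcript and more transcript per cell cannot be told apart. JUNB (ENSG00000171223) is a single-exon gene on the + strand of chromosome 19, chr19:12791496-12793315 (GRCh38). HOOK2, on the opposite strand, shares 259 exon bases with it, and at 124 to 167 scaled reads in all 6 libraries it did not move with JUNB.

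JUN, the founding member and a strong activator once phosphorylated by JNK, had 1451, 1326 and 895 scaled reads under vector against 4789, 3877 and 4105 under the nPD-L1 label. The groups did not overlap, and the means (1224 ± 292 and 4257 ± 475, SD, n = 3) were 3.48-fold apart, with a log2 difference of 1.82 (SE 0.17). JUN (ENSG00000177606) is also a single-exon gene, on the − strand at chr1:58780788-58784327. JUND, a broadly expressed subunit, had 1500, 2404 and 928 scaled reads under vector against 1621, 1955 and 1511 under the nPD-L1 label. All 3 of the latter lay inside the range of the vector libraries, and the log2 difference of 0.17 had an SE of 0.29. It was −0.17 without vector replicate 3 and 0.51 without vector replicate 2, so its sign rested on 1 library.

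FOS proteins bring transactivation domains to the pair, which FOSL1 and FOSL2 (the Fra proteins) lack in part. FOSB was the only FOS family gene whose groups did not overlap. It had 46.4, 59.9 and 55.1 scaled reads under vector against 414, 536 and 466 under the nPD-L1 label. The means (53.8 ± 6.81 and 472 ± 61.1, SD, n = 3) were 8.78-fold apart, with a log2 difference of 3.11 (SE 0.17). In whole reads this was 53 and 53 in vector replicates 2 and 3 against 493 and 483 in nPD-L1 replicates 1 and 3. FOSB (ENSG00000125740) lies at chr19:45467995-45475179 on the + strand, has 1 to 5 exons per annotated transcript, and shares no exon bases with ERCC1 on the opposite strand.

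FOS itself, the classic serum-induced gene, was low throughout. It had 91.8, 143 and 61.3 under vector against 90.8, 134 and 77.2 under the nPD-L1 label. The groups overlapped, and the log2 difference of 0.07 (SE 0.31) was −0.23 without vector replicate 3. FOSL1, which is sustained by ERK signaling in many carcinoma cells, had 2000, 1747 and 2467 scaled reads under vector against 1665, 1752 and 1545 under the nPD-L1 label. The highest nPD-L1 value lay just above the lowest vector value, and the log2 difference was −0.31 (SE 0.13). It was −0.43 without vector replicate 2, the only one of 17 refits in which FOSL1 was called lower. FOSL2 had 4294, 3281 and 4673 scaled reads against 3660, 3730 and 3813. Those of the libraries labelled nPD-L1 lay inside the range of the vector libraries, with a log2 difference of −0.11 (SE 0.13).

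The partner genes split as well. ATF3, a stress-induced factor that represses as a homodimer and can activate with JUN, had 1037, 1106 and 1003 scaled reads under vector against 2303, 2752 and 2651 under the nPD-L1 label. The groups did not overlap, and their means (1048 ± 52.4 and 2569 ± 235, SD, n = 3) were 2.45-fold apart, a log2 difference of 1.29 (SE 0.10). BATF3, which has no transactivation domain and pairs with JUN proteins, had 203, 226 and 226 scaled reads against 215, 171 and 165. nPD-L1 replicate 1 lay within the vector values and the other two below them, and the log2 difference was −0.26 (SE 0.16). ATF3 and BATF3 are neighbors on chromosome 1, on opposite strands, with 65641 bases between the end of ATF3 (chr1:212565334-212620777) and the start of BATF3 (chr1:212686418-212699985).

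MAFF, a small MAF protein without a transactivation domain that pairs with FOS and with NRF2-type factors, had 739, 939.6 and 468 scaled reads under vector against 567, 743 and 685 under the nPD-L1 label. The groups overlapped, and the log2 difference of −0.06 (SE 0.22) turned to 0.17 without vector replicate 2 and was −0.33 without vector replicate 3.

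Divided by gene length, the order of the levels changed. In the vector libraries FOSL1 was highest (1098 ± 194 scaled reads per kb, SD, n = 3), followed by JUND (865 ± 399.6) and FOSL2 (570.4 ± 101), and these neighbors overlapped. JUNB (363 ± 58.5), JUN (346 ± 82.5) and ATF3 (259 ± 13.0) came next, below FOSL2 without overlap. JUNB overlapped JUN, and JUN overlapped ATF3. MAFF (127 ± 42.2), BATF3 (80.4 ± 4.86), FOS (30.5 ± 12.8) and FOSB (9.69 ± 1.23) followed without overlap between neighbors.

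In the libraries labelled nPD-L1, JUNB stood first at 8901 ± 995 scaled reads per kb (SD, n = 3). It was followed at a distance by JUN (1203 ± 134), then by JUND (910.1 ± 124) and FOSL1 (876 ± 54.9), which overlapped. ATF3 (636 ± 58.2), FOSL2 (522 ± 10.7), MAFF (118 ± 16.0), FOSB (85.0 ± 11.0), BATF3 (67.7 ± 10.1) and FOS (31.0 ± 9.08) came below, and of these neighbors FOSB and BATF3 overlapped. In level per kb JUNB moved from above 83.4% of the genes tested in the vector group to above 99.6%, and FOSB from 14.8% to 52.2%. FOS stood above 31.6% and 31.5%.

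The sum of the 10 members was 3720, 4056 and 3469 scaled reads per kb under vector against 13920, 14100 and 12020 under the nPD-L1 label, with means 3.56-fold apart. Without JUNB the sum of the other 9 was 3386 ± 237 and 4449 ± 171 (SD, n = 3), 1.31-fold apart. JUNB supplied 9.30%, 10.5% and 9.05% of the sum in the vector libraries and 67.9%, 67.3% and 64.5% in those labelled nPD-L1, a difference of 56.9 percentage points, or 45.7 when levels were not divided by length. The share of JUN stayed within 7.29% to 11.0% in all 6 libraries, since it was higher by about the same factor as the sum. The share of FOSL1 went from 29.7% ± 7.50 to 6.58% ± 0.24 (SD, n = 3) and that of JUND from 22.6% ± 8.77 to 6.81% ± 0.60. These are shares of transcript and say nothing of protein or of the pairs formed.

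**Figure D2:**
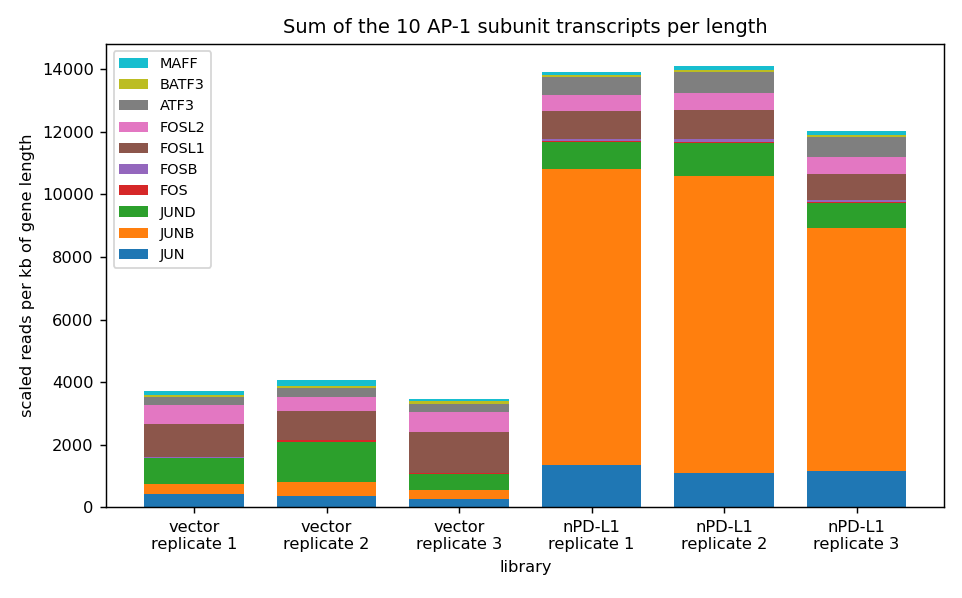
Stacked levels of the 10 AP-1 subunits in each library, in scaled reads per kb of gene length. The bars of the libraries labelled nPD-L1 reach 12020 to 14100, against 3469 to 4056 in the vector libraries, and the JUNB segment makes up 64.5% to 67.9% of them.

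Within the JUN family the sum per kb differed 7.0-fold between groups (1573 ± 514 and 11010 ± 1118, SD, n = 3), and the leading transcript changed from JUND (53.3% ± 7.60 of the family) to JUNB (80.8% ± 0.94). Within the FOS family the sums overlapped, at 1708 ± 275 and 1514 ± 65.8. FOSB went from 0.58% ± 0.15 to 5.61% ± 0.56 of it, and FOSL1 remained the leading FOS transcript at 64.2% ± 1.63 and 57.8% ± 1.53. The ratio of JUNB to JUN, per kb, was 0.844, 1.14 and 1.24 under vector against 6.99, 8.67 and 6.69 under the nPD-L1 label. The ratio of FOSB to FOS ran from 0.243 to 0.524 and from 2.34 to 3.52, so FOS was the higher of the pair in every vector library and FOSB in every library labelled nPD-L1. ATF3 exceeded BATF3 in both groups, 2.99- to 3.43-fold and 7.19- to 10.8-fold.

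The spread within groups, which the choice of members did not use, also differed among them. JUND and FOS had residual SDs of 0.50 and 0.52 on the log2 scale, larger than those of 88.5% and 88.9% of genes tested, and MAFF (0.39) exceeded 81.1%. ATF3 (0.11) exceeded 18.1% and BATF3 (0.16) exceeded 37.2%. The median over the 10 members was the 48.8th percentile of the genes tested.

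The spread of JUND, FOS and MAFF was wider among the vector libraries. Among the libraries labelled nPD-L1, replicate 2 was the highest for each of them, and replicate 3 the lowest for JUND and FOS. Among the vector libraries, replicate 2 was the highest and replicate 3 the lowest for JUND, FOS and MAFF. The log2 differences between these vector libraries were 1.37 for JUND, 1.21 for FOS and 1.005 for MAFF. JUN (0.57) and JUNB (0.44) differed in the same direction, whereas FOSL1 (−0.50) and FOSL2 (−0.51) differed in the opposite one. 1.51% of the genes tested differed in this direction by more than JUND. GC content moved with this difference. Genes tested were ranked by transcript GC content and cut into 10 bins of about 1507 genes. The bin of highest GC content, which holds JUND (69.7%), JUNB (64.9%) and MAFF (61.9%), had a median of 0.18 between vector replicates 2 and 3, and the bin of lowest GC content −0.06. FOS (52.6%), which differed by 1.21, lay in a bin with a median of 0.003. FOSL1 (60.0%), which differed by −0.50, lay in one with a median of 0.07. The part of GC content in the members' spread was not tested. Between the groups the bins of highest and lowest GC content had medians of −0.04 and 0.00. Subtracting the median of its bin left JUNB at 4.67.

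**Figure D3:**
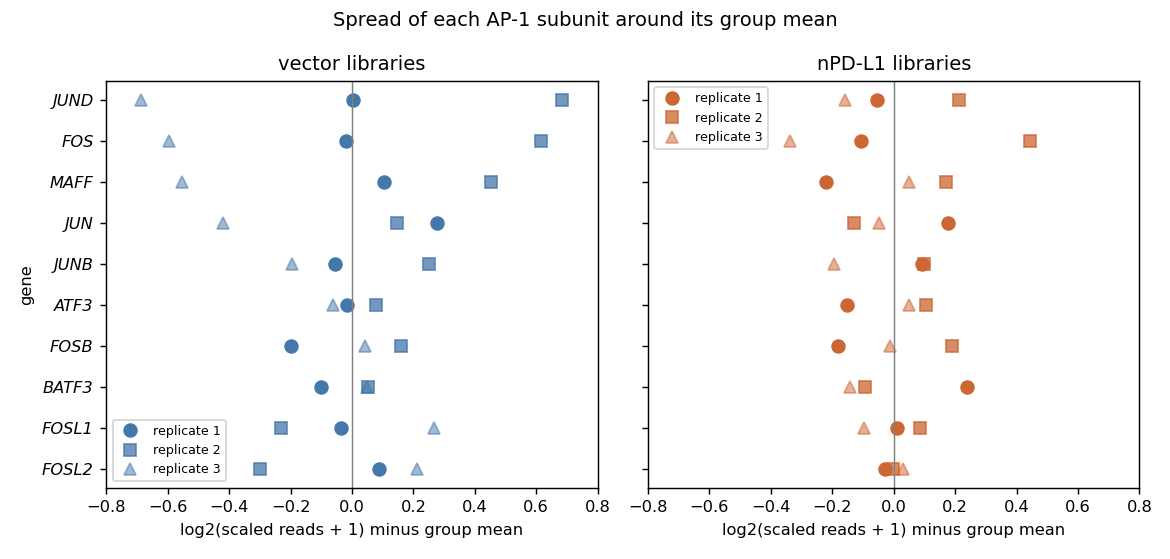
Deviation of each library from its group mean in log2(scaled reads + 1), for the 10 AP-1 subunits ordered by the difference between vector replicates 2 and 3, with vector libraries on the left and nPD-L1 libraries on the right. Among the vector libraries, replicate 3 lies lowest for JUND, FOS, MAFF, JUN, JUNB and ATF3 and highest for FOSL1 and FOSL2. The nPD-L1 libraries are closer together for most subunits.

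The genes whose pattern lay closest to that of JUNB were sought over the 6 libraries among the 10725 genes that averaged 100 scaled reads or more. Likeness was the root mean square difference between the 2 genes' log2 values, each centred on its vector mean. The closest were RND1, a small GTPase (0.31), SEMA7A, a membrane-anchored semaphorin (0.40), SOX18, a transcription factor of endothelial development (0.49), LBH (0.56) and SKIL, a corepressor of SMAD proteins (0.59). RND1 had 94.9, 123 and 88.3 scaled reads under vector against 1597, 2498 and 2044 under the nPD-L1 label. SKIL went from 598, 623 and 622 to 8441, 8317 and 9553. SEMA7A had only 20.2, 14.7 and 15.6 under vector, and SOX18 21.2, 11.3 and 7.3. These genes reached a mean of 100 only through the libraries labelled nPD-L1. The measure was computed with the group difference included, so it ranks genes that were also higher in the libraries labelled nPD-L1.

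The other bZIP factors, relatives that share the zipper and include possible partners, mostly did not pass the test. Of 36 tested among 39 in the table, 5 were called higher and 3 lower, with a median log2 difference of 0.00. Over all genes tested, 4.04% were called higher and 0.922% lower, with a median of −0.02. The small MAF genes MAFK (1.67, SE 0.17, adjusted p = 0.000147 by limma) and MAFG (0.41, SE 0.10, adjusted p = 0.0476) rose, while the groups of the third small MAF gene, the member MAFF, overlapped. MAFA rose from low values (10.5 ± 5.29 to 58.5 ± 11.5 scaled reads, SD, n = 3, adjusted p = 0.00305 by limma). At 7.1 and 7.9 scaled reads in vector replicates 1 and 2, MAFA passed the filter only with the libraries labelled nPD-L1. Its call was absent with the minimum of 10 required in all 6 libraries, and by limma and edgeR on 4 libraries. JDP2, which pairs with JUN proteins and represses, rose from 211 ± 32.7 to 395 ± 19.7 scaled reads (SD, n = 3; log2 0.91, adjusted p = 0.00411 by limma). CEBPB, an acute-phase activator, rose by 0.53 (SE 0.12, adjusted p = 0.0328).

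NFIL3, a transcriptional repressor, fell from 1295 ± 247 to 426 ± 32.0 scaled reads (SD, n = 3; log2 −1.59, adjusted p = 6.6e-05 by limma). DDIT3, which encodes the stress factor CHOP, fell by 0.87 on the log2 scale (SE 0.18, adjusted p = 0.0157), and TEF, a PAR bZIP factor, fell by 1.22 (SE 0.30, adjusted p = 0.0407). Among the fits without 1 library, MAFG and TEF kept their call only without vector replicate 2, CEBPB only without vector replicate 2 or nPD-L1 replicate 3, and DDIT3 lost it without vector replicate 1 or nPD-L1 replicate 1 or 3. The count of higher genes was 3 without vector replicate 1 or 3 or nPD-L1 replicate 1 or 2, and that of lower genes 1 without vector replicate 1 or nPD-L1 replicate 1 or 3.

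Of the upstream regulators, the MAP kinases, serum response factor with its cofactors and the factors that degrade JUN, 33 of 34 were tested. 3 were called higher and 0 lower by limma, against 4.04% and 0.922% of all genes tested. There were 0 lower at an unadjusted p under 0.05 and 0 by edgeR or DESeq2 on 4 libraries, and the median log2 difference was 0.06. MRTFA, an actin-regulated cofactor of serum response factor, rose from 517 ± 31.0 to 1083 ± 170 scaled reads (SD, n = 3; log2 1.06, adjusted p = 0.000602 by limma). ELK3, an ETS cofactor of the same factor, rose by 0.89 (SE 0.12, adjusted p = 0.00105). MAP2K3, a kinase of p38, rose by 0.39 (SE 0.09, adjusted p = 0.0349) and kept its call only without vector replicate 2. Phosphorylation, through which these kinases act, is not measured by RNA sequencing.

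Of 29 tested among 33 AP-1 target genes in the table, 5 were called higher and 4 lower, with a median of 0.15. The shares over all genes tested were 4.04% higher and 0.922% lower. Among those that rose, the cytokine gene IL11 went from 633, 373 and 1367 to 11820, 7450 and 7544 scaled reads (log2 3.67, SE 0.44, adjusted p = 0.00247), a call lost without vector replicate 2. HBEGF (1.46, SE 0.16, adjusted p = 0.000316), the angiogenic factor VEGFA (1.29, SE 0.14, adjusted p = 0.00023) and the heme oxygenase gene HMOX1 (0.88, SE 0.15, adjusted p = 0.00486) also rose.

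The 4 target genes that fell encode secreted signals or make them. The EGF receptor ligands AREG (from 5727 ± 356 to 2740 ± 200 scaled reads, SD, n = 3; log2 −1.06, adjusted p = 9.76e-05 by limma) and EREG (−1.12, SE 0.14, adjusted p = 0.000649) fell while HBEGF, a ligand of the same receptor, rose. IL6 fell from 52.5, 82.4 and 23.9 to 4.20, 5.06 and 11.6 scaled reads (log2 −2.71, SE 0.52, adjusted p = 0.0106), and its call was lost without vector replicate 1 or nPD-L1 replicate 1. PTGS2, which encodes cyclooxygenase-2, fell by 0.98 on the log2 scale (SE 0.20, adjusted p = 0.0177), a call lost without vector replicate 1 or 2 or nPD-L1 replicate 1 or 3. The count of lower target genes was 2 without vector replicate 1 or nPD-L1 replicate 1.

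Of the other immediate-early genes, 22 of 23 were tested, and 8 were called higher and 3 lower, with a median of 0.17. Beside these counts, 4.04% of all genes tested were called higher and 0.922% lower. EGR2, a zinc finger factor, rose from 16.2 ± 2.41 to 117 ± 18.5 scaled reads (SD, n = 3; log2 2.77, adjusted p = 8.24e-05 by limma). CCN2, a secreted matrix protein gene, rose by 2.17 (SE 0.34, adjusted p = 0.00884), with vector replicate 3 at 513 and the other two vector libraries at 1270 and 1412, and lost its call without vector replicate 2. IER3 (1.09, SE 0.11, adjusted p = 0.000192), the nuclear receptor gene NR4A3 (0.89, SE 0.17, adjusted p = 0.0116) and EGR1 (0.87, SE 0.20, adjusted p = 0.0345) rose.

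KLF6 (−0.92, SE 0.12, adjusted p = 0.00118), IER5 (−0.73, SE 0.11, adjusted p = 0.00247) and PPP1R15A, a phosphatase subunit of the stress response (−0.55, SE 0.12, adjusted p = 0.0286), fell. NR4A3 lost its call without vector replicate 1 or nPD-L1 replicate 2 or 3, EGR1 kept it only without vector replicate 2 or nPD-L1 replicate 2, and PPP1R15A only without vector replicate 2 or 3. The count of higher genes was 5 without vector replicate 1 or nPD-L1 replicate 1 or 3.

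None of 8 heat shock genes, fixed as a sign of handling stress, was called in either direction by limma on all 6 libraries. Nor was any by edgeR or DESeq2 on 4 libraries, and 1 (DNAJB1) was higher at an unadjusted p under 0.05 by limma. DNAJB1 was called without vector replicate 2. With all 6 libraries, limma called 4.04% of all genes tested higher and 0.922% lower. The median of the list was −0.09, and HSPA1A had 496, 505 and 374 scaled reads under vector against 644, 362 and 424 under the nPD-L1 label.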

How the data were processed

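RNA was sequenced from 3 vector and 3 nPD-L1 libraries, grouped and numbered by their titles. Per the labels, the submitters' processing notes name CASAVA, HISAT2 (version 2.0.5) and hg38; the counter and annotation are not given in the sources used here. The authors' deposited signal is reads per gene divided by a size factor of the library, although the table is presented as raw; the same file holds the authors' mean signal per group, a log2 fold change, and a p-value before and after adjustment, none of which was used. In 4 libraries 100% of the values were whole multiples of 1 read (tolerance 0.1), which gave their depths of 17427519 to 22253295 reads; in vector replicate 1 and nPD-L1 replicate 2 the depth was not recovered.

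An edgeR quasi-likelihood test had been set for raw counts. Because the values are scaled, limma (version 3.58.1, R 4.3.3) was fitted to log2(value + 1), with trended and robust eBayes, over the 15076 genes with at least 10 scaled reads in 3 or more libraries, and p was adjusted by Benjamini-Hochberg. Fold changes on this scale are understated at low values. The fit was tested on simulated data. No covariate was used, since the labels name no shared source for the replicate numbers (closing section).

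The members and gene lists were chosen with earlier results of these data known. Named were all members, CD274, the called genes with the 5 highest and 5 lowest log2 differences of each other list, and the 5 genes with a mean of at least 100 most like JUNB. Not every gene so chosen is reported here. Levels of different genes were compared per kb of deposited gene length. Promoters and gene models came from RefSeq (GRCh38.p14) and GENCODE, and the 8 motifs were searched by exact match. The alternatives were other scalings, filters, pseudocounts of 0.1 and 10, non-robust moderation, the replicate block, each library left out, and limma, edgeR (version 4.0.16) and DESeq2 (version 1.42.0) on the recovered reads of 4 libraries. A GC correction and an unadjusted threshold were added after seeing the data.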

Additional observations from a re-analysis of the deposited data

How the results depend on the processing

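The 4 members called higher (JUNB, JUN, FOSB and ATF3) were called in each of 17 refits, and their number was 4 under both other thresholds. Because the members were chosen with this contrast known, these counts describe the same difference again and are no independent support for it. No member was called lower except in the fit without vector replicate 2 (range 0 to 1 over the fits without each library), and 1 was at an unadjusted p. Of the members' log2 differences, FOSB moved by more than 1 residual SD, to 2.92 with a pseudocount of 10 and 2.91 by limma on 4 libraries. The JUNB share differed by 45.7 points without division by length, 56.7 within the JUN family and 56.3 to 58.0 without each library.

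Counts in the lists moved more. Without each library in turn, 3 to 5 other bZIP factors were called higher and 1 to 4 lower, 2 to 5 target genes lower, 5 to 7 other immediate-early genes higher, and 0 to 1 heat shock genes higher. On 4 libraries, limma and edgeR called 1 and 1 bZIP factors higher (2 by DESeq2), 3 and 3 target genes higher, 2 and 2 lower, 3 and 4 other immediate-early genes higher, and 1 and 1 lower. Upper-quartile factors, which shifted the median of all genes from −0.02 to −0.07, left 3 bZIP factors higher. MAFG, CEBPB, MAP2K3 and EGR1 lost their call there, and IL11, CCN2 and PTGS2 lost theirs with no filter on low values. With a 2-fold threshold, 2 bZIP factors, 1 upstream regulator and 3 other immediate-early genes were higher and 0 of the latter lower. At an unadjusted p, 8 bZIP factors were higher and 6 lower, and 6 upstream regulators, 10 target genes and 1 heat shock gene were higher. Over all genes tested, 331 to 791 were called higher and 76 to 242 lower without each library in turn, against 609 and 139 with all 6. The highest counts of both were those without vector replicate 2. The cause of these moves was not tested, and neither was the part of the smaller number of libraries.

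The replicate numbers share no stated source. Same-numbered libraries had deviations correlated at −0.01, 0.23 and 0.13 over 15076 genes, and differently numbered ones at −0.22 to 0.08. Whether same-numbered libraries share a source was not tested, and the numbers were not taken as a pairing. With the replicate block 927 genes were called higher and 258 lower, against 609 and 139 without it. In the lists, 7 other bZIP factors were then called higher and 4 lower. Called higher were also 4 upstream regulators, 8 target genes, 7 other immediate-early genes and 1 heat shock gene, and 4 members. IL11 and CCN2 lost their call. With 3 libraries a group, small differences of JUND, FOS and MAFF could not be resolved.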
